A study of Equus caballus with 9 samples.

Results

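Equine adipogenic and chondrogenic cells were compared with each other, using 6 of the 9 RNA sequencing libraries of the series. All were derived from bone marrow mesenchymal stromal cells (MSCs), the fibroblast-like cells of the marrow that can be grown in culture. The sample titles gave 3 libraries of cells taken towards adipocytes (ADM1 to ADM3) and 3 of cells taken towards chondrocytes (CDM1 to CDM3). The 3 libraries of undifferentiated cells (MSC1 to MSC3) were not part of the fits and are used only to place levels. No treatment agent, culture time, genotype, sex or age of the horses is given in the sources used here. The labels do not say whether replicates came from separate animals or cultures. The p-values therefore reflect the variation among these 6 libraries alone, and part or all of it may be technical.

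Adipogenesis is driven by PPARG and CEBPA, transcription factors that switch on genes of lipid uptake, lipid droplets and fat-cell hormones. Chondrogenesis is driven by SOX9, which switches on the cartilage collagens and the proteoglycan aggrecan. Stromal cells of the bone marrow can follow either route in culture. Comparing the products directly asks how the lineages differ, without reference to the starting cells. The files list 30371 Ensembl IDs with no names, and the gene table at hand held 0 of these IDs. Markers of neither lineage, nor of other cell types, could therefore be looked up, and the labels ADM and CDM were not checked against marker genes. Genes are given by ID, with no statement of what they encode. In these bulk libraries, fewer cells of a type and less RNA per cell cannot be told apart.

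Reads assigned to genes numbered 17260899 in CDM2 and up to 39331930 in ADM1, and 15665 to 16464 genes had at least 1 count. CDM2 stood apart. In it, the top 10 genes took up 56.2% of gene counts, where the other 5 libraries had 13.4% to 23.3%. A single gene, ENSECAG00000027689, held 36.8% of its counts (Wilson 95% interval 36.739% to 36.784%, for counting error only), against 0.685% to 2.46% in the other 5. TMM, which scales libraries by the trimmed mean of their expression ratios, gave it a factor of 0.566, against 0.973 to 1.23.

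The ADM libraries were close to one another and the CDM libraries were not. Across the 13039 tested genes, log2 CPM (read counts relative to the scaled library total) correlated at 0.969 to 0.972 among the 3 pairs of ADM libraries. The pairs of CDM libraries correlated at 0.755 for CDM1 and CDM2, 0.800 for CDM2 and CDM3 and 0.908 for CDM1 and CDM3. Each of CDM1 and CDM3 was about as similar to the ADM libraries as they were to each other: CDM1 correlated with them at 0.912 to 0.931, and CDM3 at 0.891 to 0.913. CDM2 correlated with them at 0.730 to 0.737. These values describe libraries across genes, which are not independent replicates.

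The spread within groups showed the same contrast. The biological coefficient of variation, the relative spread between libraries beyond counting noise, was 0.259 in ADM and 0.718 in CDM, and 0.497 for CDM1 and CDM3 alone. The median standard deviation of a gene's log2 CPM was 0.25 in ADM and 0.79 in CDM. A fit with 1 weight per library gave ADM1 a weight of 3.93, ADM2 2.15 and ADM3 1.52. The weights of the chondrogenic libraries were 0.430 for CDM1, 0.143 for CDM2 and 1.26 for CDM3. CDM3 thus carried 68.8% of the summed weight of its group, CDM1 23.4% and CDM2 7.80%, and the chondrogenic level in that fit is mainly the level of CDM3.

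**Figure D1:**
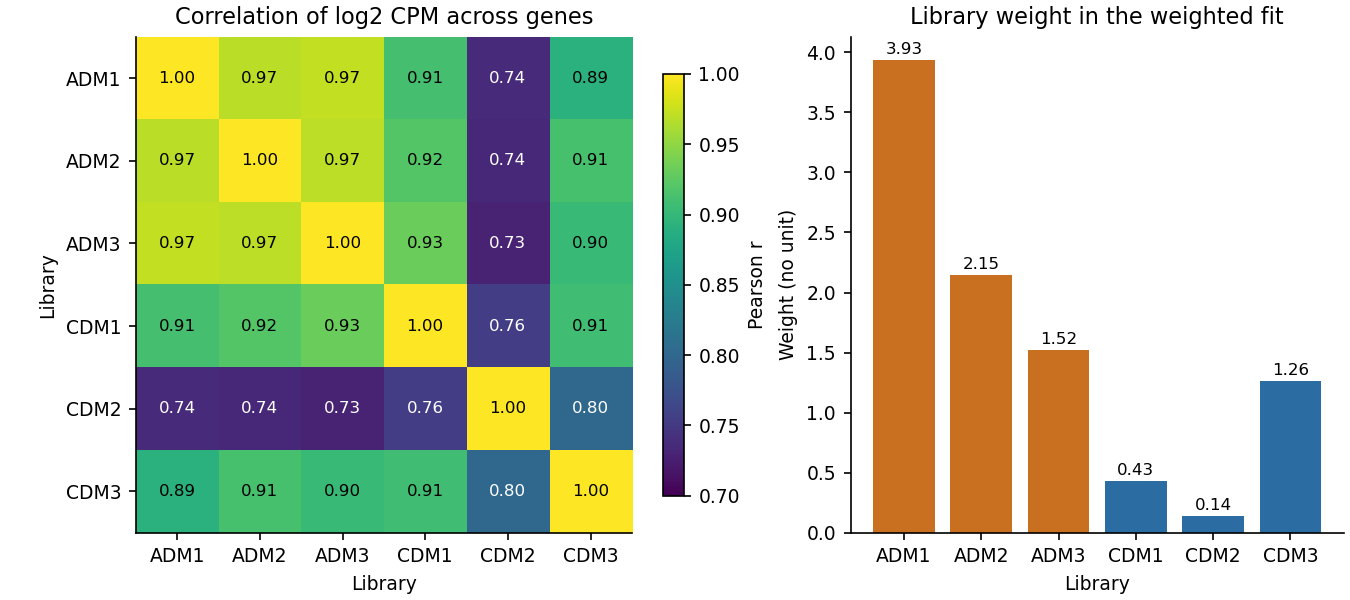
Left, Pearson correlation of log2 CPM across the 13039 tested genes for each pair of the 6 libraries (colour and number). Right, the weight of each library in the weighted fit. The ADM libraries correlate at 0.97 with each other, CDM2 has the darkest squares with every library and the lowest weight (0.14), and CDM3 has the highest weight of the CDM libraries (1.26).

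The first question was which genes differed between the lineages when the 6 libraries were fitted alone. In edgeR's quasi-likelihood test, 0 of 13039 genes were higher and 0 were lower in ADM than in CDM at an adjusted p under 0.05 (0% in each direction). The smallest adjusted p was 0.0933. At an unadjusted p under 0.05 there were 951 genes higher and 1218 lower in ADM, 2169 in all, where 652 would be expected by chance. DESeq2 on the same counts called 445 higher (3.41%) and 451 lower (3.46%). It gave no adjusted p for 321 of the 13039 genes, which could not be called but are in the base of these shares. Without CDM2, edgeR called 48 of 13436 genes higher (0.357%) and 31 lower (0.231%). Leaving out any other single library left 0 genes in each direction.

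When each library was weighted by its quality (limma's voom with 1 weight per library), 437 genes were higher in ADM (3.35%) and 246 were lower (1.89%). The genes higher in ADM had a median log2 difference of 1.82, with quartiles of 1.51 and 2.53 and a highest value of 7.73. Of these 437 genes, 175 differed by at least 2 on the log2 scale. The genes lower in ADM had a median of -1.67 and a largest difference of -9.41, and 97 of the 246 differed by at least 2 on that scale. Over all tested genes the median was 0.02. Called genes lay at all levels, with a median of 23.7 CPM for those higher and 18.2 CPM for those lower, against 16.6 CPM over all tested genes.

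These calls depended on the weights and on every chondrogenic library. The same voom fit without weights called 1 gene higher and 1 lower, and a fit with 1 weight per group called 0 and 0. The weighted fit called 1 higher and 2 lower without CDM1, 0 and 0 without CDM2, and 0 and 4 without CDM3. Without ADM1 it called 84 and 50, without ADM2 227 and 107, and without ADM3 68 and 38. All 246 genes lower in ADM in the weighted fit, and 434 of the 437 higher, had the same sign in edgeR. Of them, 233 and 368 had an unadjusted edgeR p under 0.05. Of all 13039 tested genes, 10863 had the same sign in both fits and 2169 had an unadjusted edgeR p under 0.05. Both fits use the same 6 libraries and the genes were chosen for their difference in them, so this is no independent support.

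**Figure D2:**
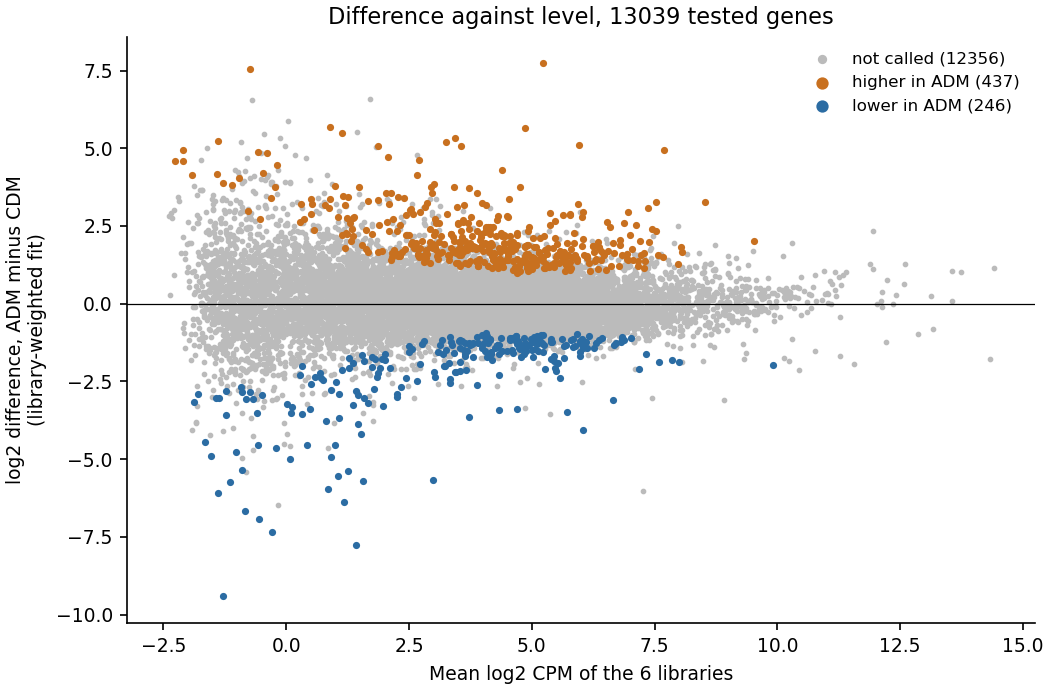
Each point is 1 of 13039 tested genes, with its mean log2 CPM over the 6 libraries on the horizontal axis and its log2 difference, ADM minus CDM, in the library-weighted fit on the vertical axis. The 437 genes called higher in ADM (orange) and the 246 called lower (blue) lie at differences from about 1 outward across most of the range of levels, and the largest difference is -9.41.

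**Figure D3:**
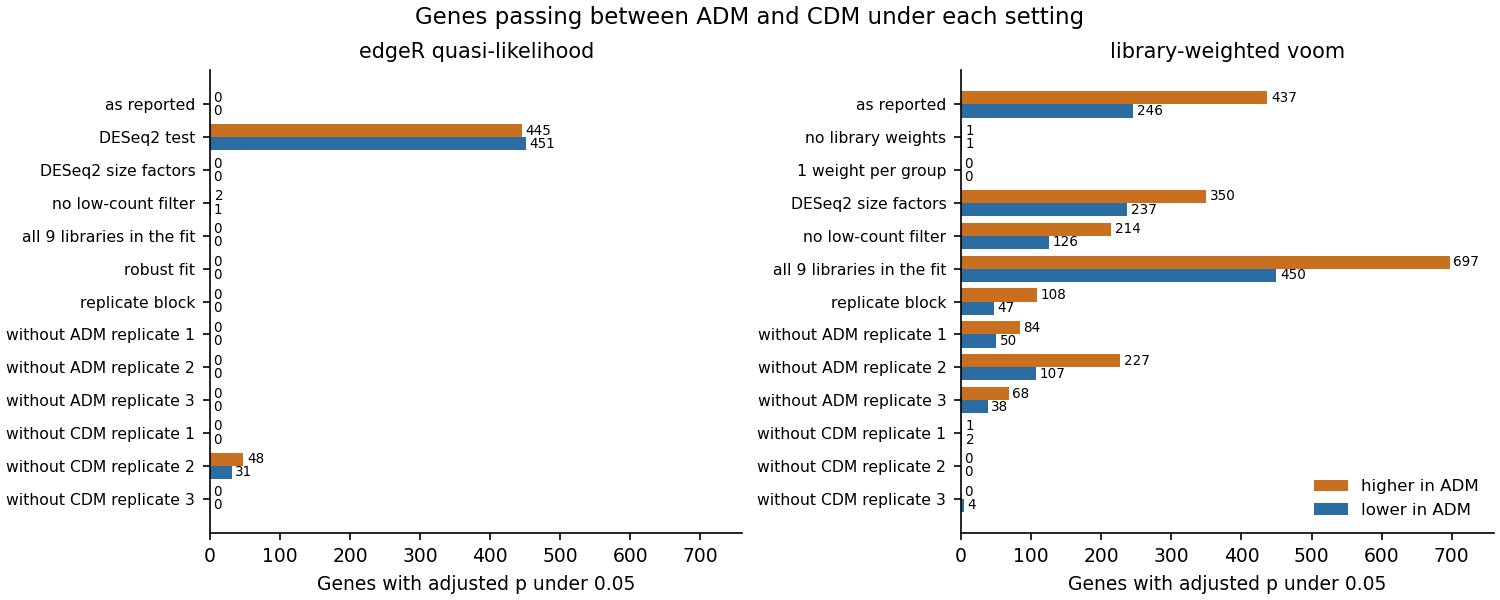
Number of genes with an adjusted p under 0.05, higher (orange) and lower (blue) in ADM, under each setting of the edgeR fit (left) and the library-weighted voom fit (right). In edgeR genes pass with the DESeq2 test (445 and 451), without CDM2 (48 and 31) and without a low-count filter (2 and 1), while the weighted counts drop to between 0 and 4 without any 1 CDM library.

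The genes with the largest weighted differences were examined library by library. They were taken from genes that passed the weighted fit, whose higher group averaged 5 CPM or more and whose groups did not overlap. These conditions were met by 377 genes higher in ADM and 199 lower, and the first 2 per direction by size of difference are named.

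ENSECAG00000003606 was at 738.8 CPM in ADM1, 358.2 in ADM2 and 498.5 in ADM3. In the chondrogenic libraries it was at 1.19 CPM in CDM1, 4.92 in CDM2 and 3.21 in CDM3. The groups were far apart and every library followed its group. The mean was 531.8 ± 192.5 CPM in ADM and 3.11 ± 1.87 CPM in CDM (SD, n = 3 each), a 171-fold ratio of means. The weighted log2 difference was 7.73 (SE 0.59, adjusted p = 0.00562 in limma). In edgeR it was 7.44 (SE 0.74, adjusted p = 0.0933), and 7.91 without CDM2, with an adjusted p of 0.0454. The weighted call was lost with 1 weight per group (limma adjusted p = 0.0566) and without CDM1 (0.126), CDM2 (0.0544) or CDM3 (0.330). Over all 12 alternatives of the weighted fit the adjusted p ran from 0.00103 to 0.330. With all 9 libraries scaled together, the undifferentiated cells had 34.8 CPM in MSC1, 0.454 in MSC2 and 14.9 in MSC3. All were far below the ADM libraries, whose lowest value on that scale was 391.0 CPM. MSC2 was below the lowest CDM library, at 1.28 CPM, and MSC1 and MSC3 were above the highest, at 5.41 CPM.

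ENSECAG00000018633 was at 11.1 CPM in ADM1, 12.8 in ADM2 and 22.0 in ADM3. It was at 0.161 CPM in CDM1, 0.103 in CDM2 and 0.289 in CDM3, from 5, 1 and 10 reads. The gene was close to absent from the chondrogenic libraries and present in every adipogenic one. The means were 15.3 ± 5.87 and 0.184 ± 0.0954 CPM (SD, n = 3 each), an 83.2-fold ratio. The weighted log2 difference was 5.67 (SE 0.93, limma adjusted p = 0.0236). In edgeR it was 6.24 (SE 0.59, adjusted p = 0.0933), and 6.06 without CDM2, with an adjusted p of 0.0454. The weighted call was lost without weights (limma adjusted p = 0.140), with 1 weight per group (0.205) and without CDM1 (0.308), CDM2 (0.174) or CDM3 (0.963). Over its 12 alternatives the adjusted p ran from 0.00891 to 0.963. The undifferentiated libraries had 28, 0 and 10 reads, levels of at most 0.814 CPM.

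The genes lower in ADM with the largest weighted differences owed their high mean to CDM3. ENSECAG00000020648 had 0 reads in each of the 3 ADM libraries, and 33 in CDM1, 8 in CDM2 and 664 in CDM3. These CDM counts correspond to 1.06, 0.821 and 19.2 CPM. Every CDM library was above every ADM library, and CDM3 was far above CDM1 and CDM2. Taken against 3 reads per ADM library, the limit that a count of 0 allows, the CDM mean of 7.03 ± 10.5 CPM (SD, n = 3) was at least 88.5-fold higher. The mean of CDM1 and CDM2 alone, 0.942 CPM, was at least 11.9-fold higher. The weighted fit gave an adjusted p of 0.0179 in limma and edgeR gave 0.210. The weighted call was lost without CDM1 (limma adjusted p = 0.1104), CDM2 (0.117), CDM3 (0.415) or ADM3 (0.0623), without weights (0.151) and with 1 weight per group (0.103). The fitted log2 difference was -9.41, and -6.29 without CDM3. The MSC libraries had 3, 56 and 41 reads.

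ENSECAG00000008493 was at 0.160 CPM in ADM1, 0.744 in ADM2 and 0.629 in ADM3. It was at 3.70 CPM in CDM1, 2.67 in CDM2 and 283.1 in CDM3. The groups did not overlap, but CDM1 and CDM2 were much closer to the ADM libraries than to CDM3. The mean was 0.511 ± 0.309 CPM in ADM and 96.5 ± 161.6 CPM in CDM (SD, n = 3 each). The weighted log2 difference was -7.75 (SE 1.68, limma adjusted p = 0.0403), and -3.28 without CDM3, with an adjusted p of 0.963. This call was lost in 10 of 12 alternatives, among them leaving out any 1 library, and the adjusted p ran from 0.0141 to 0.963. The edgeR difference was -7.56 (SE 2.08, adjusted p = 0.226), and -2.64 without CDM3. The MSC libraries also spread widely, with 10.0 CPM in MSC1, 101.7 in MSC2 and 0.575 in MSC3. DESeq2 gave no adjusted p for this gene or for ENSECAG00000020648.

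**Figure D4:**
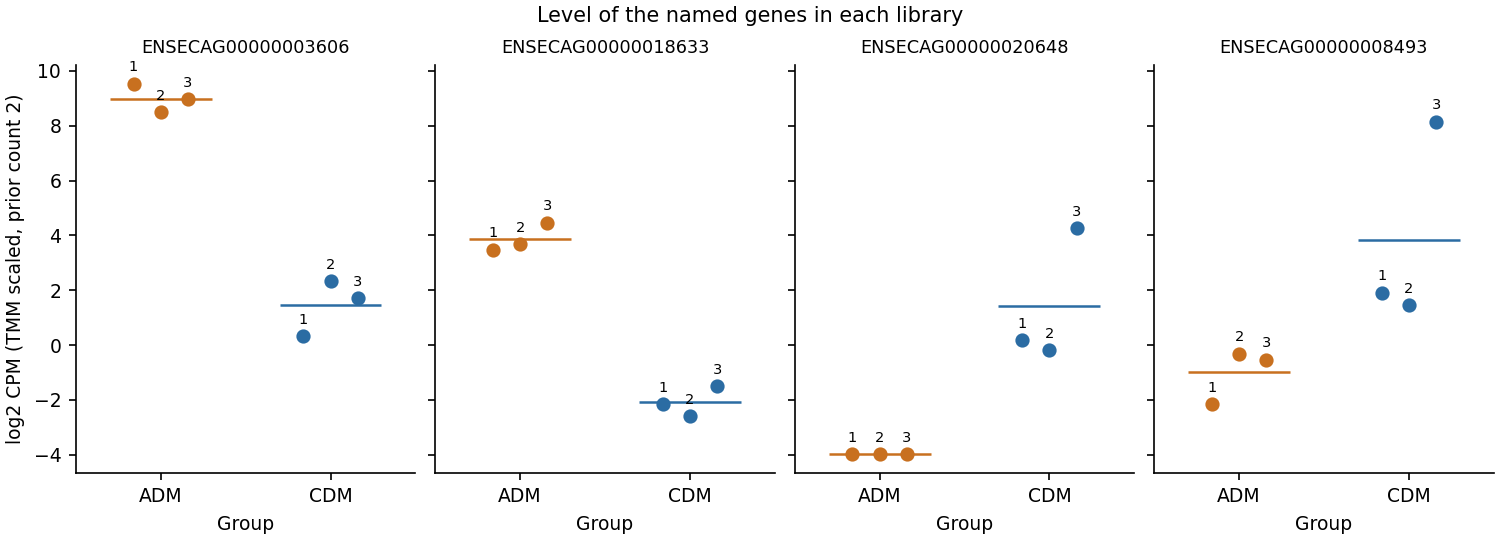
log2 CPM (TMM scaled, prior count of 2) of the 4 named genes in each ADM and CDM library. Numbers mark the replicate and lines the mean of the 3 libraries of a group. For the first 2 genes the ADM libraries lie together above all CDM libraries. For the last 2, all CDM libraries lie above the ADM libraries, with CDM3 far above CDM1 and CDM2.

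A count that uses no model also found more genes higher than lower in ADM, whereas the edgeR genes at an unadjusted p under 0.05 were more often lower. In 1996 genes (15.3%) every ADM library was above every CDM library, and in 1497 (11.5%) every ADM library was below. Without CDM2 the counts were 2991 and 2467 of 13436 genes. They were 3746 and 2928 of 13337 without CDM1, and 2659 and 2128 of 13389 without CDM3. Fewer libraries leave fewer chances to overlap, so a rise on leaving out a library is not particular to CDM2. The count also depends on scaling. With library totals as the only scaling it was 2770 higher and 631 lower, and the median log2 difference over all genes was then 0.42, against 0.05 with TMM and -0.02 with DESeq2's size factors. An exact test on 3 libraries against 3 cannot give a p below 0.1 for a single gene. Groups of unequal spread can also part without a difference of mean level.

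Few of these genes were parted by a wide gap. The gap is the log2 distance between the lowest library of the higher group and the highest of the lower group. It was above 2-fold in 272 genes higher in ADM (2.09% of all tested genes) and 120 lower (0.920%). It was above 4-fold in 43 and 27, and above 8-fold in 9 and 9. Without CDM2 the numbers were 431 and 195, 76 and 51, and 17 and 22, again with fewer libraries that could overlap. Of the weighted calls, 407 of 437 higher and 229 of 246 lower were among the genes without overlap. A gap above 2-fold was found in 166 and 87 of the weighted calls. Both measures use the same 6 libraries, so the agreement is no independent support.

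Some genes were close to present in one lineage and absent from the other. In 12 genes every ADM library had at least 10 reads and no CDM library had more than 3, and in 5 genes the reverse held. Without CDM2 these numbers were 24 and 19, where fewer libraries had to meet the rule. The 12 genes were low, with a median of 0.639 CPM in ADM and a highest mean of 3.96 CPM. The 5 genes had a median of 4.59 CPM in CDM and a highest mean of 41.1 CPM. In 1 of the 5, and 0 of the 12, the other group had 0 reads in all its libraries. The weighted fit called 6 of the 12 and all 5 of the 5, where 3.35% of all tested genes were called higher and 1.89% lower. The rule is set in reads, so the CPM it demands rises as depth falls. CDM2, with the fewest gene counts (17260899), needs a higher CPM for 10 reads than any ADM library. The numbers and levels of the 12 and the 5 are therefore not directly comparable.

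Each chondrogenic library was then set against the range of the 3 ADM libraries. CDM1 was more than 2-fold above that range in 453 genes and more than 2-fold below it in 950. The counts were 788 and 1413 for CDM3, and 2843 and 3475 for CDM2. CDM2 was thus more than 2-fold beyond the adipogenic range in 48.5% of genes, against 10.8% for CDM1 and 16.9% for CDM3. In each CDM library the genes more than 2-fold below the range outnumbered those more than 2-fold above it. CDM1 and CDM3 shared 405 genes more than 2-fold below the ADM range and 164 more than 2-fold above. CDM2 was also below the range in 344 of the 405, within it in 25 and above it in 36. Among the 164, CDM2 was also above the range in 136, within it in 10 and below it in 18. Over all tested genes CDM2 lay below the ADM range by any amount in 48.3% and above it by any amount in 39.9%. The 3 CDM libraries are compared here with the same ADM range, so these counts are a description only.

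**Figure D5:**
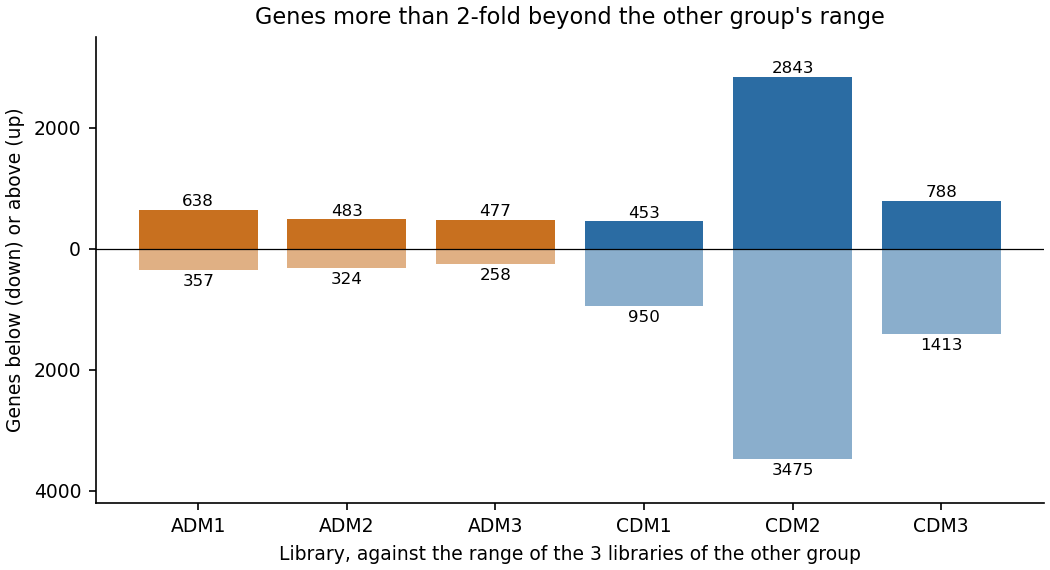
Number of genes in which a library was more than 2-fold above (bars up) or below (pale bars down) the range of the 3 libraries of the other group. CDM2 is more than 2-fold above the ADM range in 2843 genes and more than 2-fold below it in 3475. For CDM1 and CDM3 the counts run from 453 to 1413, with more genes below than above.

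The largest fitted differences towards the chondrogenic side often came with CDM2 at the top. In edgeR, 290 genes were lower in ADM by at least 3 on the log2 scale. CDM2 was the highest of the 6 libraries in 240 of these, and 145 were without overlap between the groups. In 18 of the 290 CDM2 was the only chondrogenic library outside the adipogenic range. Over all 13039 tested genes, 1497 (11.5%) were without overlap and lower in ADM, and 1996 (15.3%) without overlap and higher. CDM2 was the highest of the 3 CDM libraries in 5086 of the 13039 tested genes. That is a looser condition than the highest of all 6, so 5086 is not a direct baseline for the 240. By contrast, 84 genes were higher in ADM by at least 3, and 82 of these were without overlap. Without CDM2 the balance turned, with 117 genes lower and 128 higher by at least 3, of which 90 and 122 were without overlap.

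A smaller set passed in several fits. The weighted fit, DESeq2 and edgeR without CDM2 all called 34 genes higher and 23 lower in ADM that also had no overlap between all 6 libraries. The fits share their libraries, so passing in several of them is a description and not added evidence. The 34 genes had a median weighted log2 difference of 2.64, ranging from 1.45 to 7.73. Their mean level in ADM ran from 2.59 to 531.8 CPM, with a median of 28.5 CPM, against a median of 4.40 CPM in CDM. The 23 genes had a median weighted log2 difference of -3.20, ranging from -6.37 to -1.44. Their median level was 40.3 CPM in CDM and 5.25 CPM in ADM. The gap between the groups was above 2-fold in 33 of the 34 and 19 of the 23, against 2.09% and 0.920% of all tested genes. The 34 and the 23 were chosen for groups that do not overlap, so a gap of some size was built in. ENSECAG00000003606 and ENSECAG00000018633 met all these conditions. Of the 48 genes that edgeR called higher without CDM2, 47 (97.9%) were among the 437 of the weighted fit, of which they made up 10.8%. Of the 31 lower, 24 (77.4%) were among the 246, or 9.76% of them. DESeq2 shared 261 genes higher, 58.7% of its own and 59.7% of the weighted ones. It shared 204 lower, 45.2% of its own and 82.9% of the weighted ones.

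The undifferentiated libraries, which entered none of these fits, were used to place the lineages. Levels of all 9 libraries were scaled together and group means of log2 CPM were compared. Among the 437 genes higher in ADM by the weighted fit, the MSC mean was nearer to the CDM mean in 312 (71.4%). Over all tested genes with ADM above CDM, that share was 48.9%. Among the 246 genes lower in ADM, the MSC mean was nearer to CDM in 190 (77.2%), against 45.4% of all tested genes with ADM below CDM. In the genes called in several fits, MSC was nearer to CDM in 31 of 34 higher and 23 of 23 lower. With the CDM mean taken from CDM1 and CDM3 alone, the shares nearer to CDM were 75.7% of the 437 and 82.5% of the 246, against 55.9% and 54.0% of all tested genes. The MSC mean lay between the lineage means in 320 of the 437 (73.2%) and 180 of the 246 (73.2%), against 44.4% and 44.3% of all tested genes of the same direction. It lay beyond the CDM mean in 106 (24.3%) and 61 (24.8%), close to the 27.2% and 25.7% of all tested genes. It lay beyond the ADM mean in 11 (2.52%) and 5 (2.03%), against 28.3% and 30.0%. The called genes were chosen for a wide difference between ADM and CDM, which leaves more room for the MSC mean to lie between. Over all tested genes the quartiles of the weighted log2 difference were -0.48 and 0.60. How far the choice of genes bears on the contrast with the all-gene shares, for lying between or for lying nearer to CDM, was not tested. These are positions of means over 3 libraries, given as a description without a test.

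The share of reads in the called genes was small. The 437 genes held 3.22% to 3.94% of gene counts in the ADM libraries, and 1.33%, 0.482% and 0.932% in CDM1, CDM2 and CDM3. The 246 genes held 0.473% to 0.514% in the ADM libraries and 1.14%, 1.16% and 1.80% in the CDM libraries. These are shares of all gene counts of a library. In CDM2 ENSECAG00000027689 alone held 36.8% of them, which lowers the share left for all other genes. The groups do not overlap in either share, a direction that the choice of genes fixes. Wilson 95% intervals of these shares reached at most 0.00658 percentage points to either side.

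Called genes were spread over the range of expression. The weighted fit called 2.17% of the 1015 genes with a mean under 1 CPM and 4.05% of the 4000 between 1 and 10 CPM. It called 6.45% of the 6712 between 10 and 100 CPM and 5.03% of the 1312 over 100 CPM. Genes higher in ADM outnumbered those lower in the upper 3 classes, with 97 against 65, 282 against 151 and 48 against 18. Under 1 CPM the numbers were 10 and 12.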

How the data were processed

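Each deposited file holds unnormalized read counts by gene ID for 1 library of polyadenylated RNA. Build equCab3 and the tools HTSeq 1.99.2, STAR 2.7.5c, DESeq2 3.16 and FastQC 0.11.9 are listed, with no role, in the submitters' processing notes. Which annotation release was used, and whether counting used strand, is not given in the sources used here, so reads of overlapping or antisense genes, or near-identical copies, may not be kept apart. The 5 summary lines per file were not used in the fits. They made up 36.4% of counted reads in CDM2 and 24.4% to 30.2% in the other 5 libraries.

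Counts of the 6 libraries were fitted in R 4.3.3 with edgeR 4.0.16 (filterByExpr by group, TMM, quasi-likelihood test, 4 residual degrees of freedom) and with limma 3.58.1 (voomWithQualityWeights, 1 weight per library) on the same 13039 genes. Tests were 2-sided with Benjamini-Hochberg adjustment over all tested genes and a threshold of 0.05. DESeq2 1.42.0 was an alternative, beside other scalings, filters, weights, samples and a replicate block. SEs come from the difference and its test statistic. log2 CPM used a prior count of 2. Both procedures were run on simulated data with equal spread or with 1 spread per group. No single library was made to stand apart there, so the simulation does not cover a library such as CDM2. Pairs of libraries within a group differed by a chi-square of 69.2 to 1988 per degree of freedom, so each was counted as 1 library. Named genes needed an adjusted p under 0.05 in edgeR or, failing that, in the weighted fit, a higher group averaging 5 CPM or more and groups that did not overlap. They were ordered by difference, with 2 IDs per direction because no symbols were available. Gene lists could not be matched and were not used. The members, lists and tests were chosen with earlier results of these data known. ENSECAG00000027689 and the genes called in several fits were chosen after their values were seen. Gap counts, genes present in 1 group, large differences and MSC positions without CDM2, and the bound without CDM3, were also added after seeing the data.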

Additional observations from a re-analysis of the deposited data

Results flagged for a closer look

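The summary lines of the count files, which hold reads assigned to no gene and enter no comparison, exceeded the range of the undifferentiated libraries in 2 chondrogenic libraries and in no adipogenic one. Reads in no annotated feature made up 24.4% of counted reads in CDM2 and 23.3% in CDM3, against at most 22.1% in MSC and 16.9% in CDM1. Ambiguous reads made up 4.47% in CDM2, against at most 1.74% in MSC. Reads with more than 1 alignment made up 7.49% in CDM2, against at most 6.72% in MSC. Wilson 95% intervals of these shares reached at most 0.0162 percentage points to either side. The part of these reads in the differences between ADM and CDM was not tested.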

How the results depend on the processing

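Of 66 counts recomputed under an alternative, 34 stayed within 1.5 times the reported count and 32 did not. The cause was not tested unless fewer samples or genes account for it by construction. The counts that stayed include edgeR counts of 0 that remained 0. Of the weighted counts, only those with DESeq2's size factors stayed, at 350 higher and 237 lower. In edgeR, 0 genes higher and 0 lower became 445 and 451 with DESeq2 and 2 and 1 without a low-count filter, and leaving out 1 library gave 0 to 48 and 0 to 31. The weighted counts of 437 and 246 became 1 and 1 without weights, 0 and 0 with 1 weight per group, 214 and 126 without a low-count filter and 697 and 450 with all 9 libraries in the fit, while leaving out 1 library gave 0 to 227 and 0 to 107. Genes without overlap numbered 631 lower in ADM (1497 as reported) with library totals as the only scaling. Leaving out 1 library gave 2177 to 3746 higher and 1767 to 2928 lower, where fewer libraries leave fewer chances to overlap.

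With the replicate number as a block (replicate block), edgeR still called 0 and 0 and the weighted fit called 108 and 47. Deviations from the group means correlated at -0.08, -0.05 and -0.06 for libraries of the same number. The 3 highest correlations, 0.14 to 0.18, were between libraries of different numbers (ADM3 with CDM1, ADM1 with CDM2 and ADM2 with CDM3). With 3 libraries per group these deviations are tied to one another, and CDM2 stands apart. They therefore cannot tell whether the libraries are paired, by number or in another order. The 4 named genes kept their direction under each of the 11 or 12 alternatives that gave a value, but their weighted calls did not hold. The kept direction follows from the choice of genes with large differences and no overlap, and is no added evidence. Of 12 alternatives each, the call was lost in 4 for ENSECAG00000003606, 5 for ENSECAG00000018633, 6 for ENSECAG00000020648 and 10 for ENSECAG00000008493. Depth limits the lowest levels: ENSECAG00000018633 had 1 to 10 reads in the CDM libraries, and a change below such levels would not be detectable.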
